A study of Mus musculus with 9 samples.

Results

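The 10 genes described here encode the transcription factors that set up and maintain the heart muscle lineage: Gata4, Gata6, Nkx2-5, Isl1, Tbx5, Tbx20, Mef2a, Mef2c, Hand1 and Hand2. They were chosen by name from what is known of heart development, and with earlier results of these data known. Each was matched by its gene symbol to 1 probe set, and they are 10 of the 30142 genes with a symbol of their own on the array. The study measured RNA of whole hearts of nude mice, which lack a thymus and so most T cells, 6 weeks after treatment for chronic heart failure. By the protocols, heart failure had been induced by permanent ligation of the left anterior descending artery. Mice with an ejection fraction below 50% were treated 3 weeks after it. Vesicle hearts (3 arrays) were given the extracellular vesicles, small membrane particles, that 500000 cardiovascular progenitor cells secrete in 48 hours. Cell hearts (3 arrays) were given 500000 of the progenitor cells, injected at 3 sites beside the infarct. The sham heart (1 array) was pricked 3 times with the needle and got no injection, and control hearts (2 arrays) were given the culture medium alpha-MEM. The sham array, vesicle array 1, cell array 1 and control array 1 carry experiment number 9 in their titles, and the other 5 arrays carry experiment number 1. Nothing in the labels says that each array is a separate mouse, so p-values measure the spread between these arrays, which may be partly technical. The labels give the tissue as the excised heart, with muscle, scar and vessels together, so that fewer cells of a type and less RNA per cell cannot be told apart.

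These factors bind DNA in combination and switch on the contractile and electrical genes of heart muscle. Gata4 and Gata6 are zinc finger proteins, Nkx2-5 and Isl1 homeodomain proteins, Tbx5 and Tbx20 T-box proteins, Mef2a and Mef2c MADS-box proteins, and Hand1 and Hand2 basic helix-loop-helix proteins. In the embryo Isl1 marks progenitors of the second heart field and falls silent in most cells as they become muscle, whereas most of the others stay active in adult heart muscle, and Gata4, Gata6 and Hand2 are also used by other cells of the heart wall.

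Deposited values are on a log2 scale, and a gene was called detected on an array when it read above 95% of the 10553 negative control probe sets there, a level between 7.18 and 7.28 that is called the control percentile below. By this measure 8 of the 10 factors were detected on all 9 arrays, as were 20.1% of all genes. Hand1 and Isl1 lay under the percentile on all 9. All 6 measured heart muscle markers, Myh6, Tnnt2, Tnni3, Myl2, Ttn and Mb, were detected on every array. Array medians over all genes ranged from 5.56 to 5.63. A pair of arrays stood apart from the rest. On vesicle array 3, 3 of 8 lung epithelium markers were detected, against 0 on every other array. Cell array 3 held the highest value of the 9 arrays for 26.3% of the 6070 genes detected on all of them. Cell array 1 had the next largest share, 19.4%. Vesicle array 3 and cell array 3 both carry the number VTS 2 in their titles, which the labels do not explain and which no control array carries. Values without these arrays are given beside the differences they moved most.

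Promoter sequence is shown for 3 factors on which the results turn: Mef2a, whose difference from control ran the same way on every treated array, and Hand2 and Nkx2-5, both highest on cell array 3. RefSeq (GRCm38.p6) held an entry for 6 of the 10 factors. Each sequence holds the 250 bases before a start site and 10 bases after it, and capitals mark matches on either strand to GATAA (the core of a GATA site), AAGTG (the core of an Nkx2-5 site), AGGTGT (a T-box core) or the MEF2 consensus.
Mef2a, chr7:67372849-67373108, minus strand: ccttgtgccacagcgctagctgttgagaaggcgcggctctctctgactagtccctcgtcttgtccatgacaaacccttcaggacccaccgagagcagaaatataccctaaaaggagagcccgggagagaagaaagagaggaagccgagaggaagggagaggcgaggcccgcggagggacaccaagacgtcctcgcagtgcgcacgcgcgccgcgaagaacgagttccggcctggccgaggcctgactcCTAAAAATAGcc
Hand2, chr8:57320733-57320992, plus strand: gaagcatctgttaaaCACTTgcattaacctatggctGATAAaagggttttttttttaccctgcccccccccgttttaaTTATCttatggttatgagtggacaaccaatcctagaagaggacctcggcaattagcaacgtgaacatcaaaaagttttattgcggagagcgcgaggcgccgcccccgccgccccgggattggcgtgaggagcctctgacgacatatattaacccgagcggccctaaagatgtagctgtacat
Nkx2-5, chr17:26841556-26841815, minus strand: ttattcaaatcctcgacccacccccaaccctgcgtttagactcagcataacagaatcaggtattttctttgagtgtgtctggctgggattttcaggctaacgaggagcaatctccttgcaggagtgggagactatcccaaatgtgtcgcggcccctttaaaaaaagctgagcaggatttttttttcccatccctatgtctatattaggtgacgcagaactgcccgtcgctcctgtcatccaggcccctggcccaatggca

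The Mef2a window held 1 match to the MEF2 consensus, at bases 249 to 258, across the start site. Such a match occurred in 2.98% of 32851 promoter windows of the same length. The Hand2 window held 2 GATAA matches, at bases 37 to 41 and 79 to 83, and 1 AAGTG match at bases 16 to 20, motifs present in 23.3% and 42.2% of the windows. AGGTGT, present in 12.2% of the windows, was in none of the 3 sequences, and the Nkx2-5 window held none of the 4 motifs. The marked matches do not overlap each other. Of the other windows read, that of Isl1 held 1 GATAA match and that of Tbx20 no match, and 3 windows of alternative Mef2c starts each held 1 AAGTG match. The Mef2c window that starts at 83523406 on chromosome 13 held 2 GATAA matches and 1 AGGTGT match besides. These matches describe letters in the windows and say nothing of binding in these hearts.

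**Figure D1:**
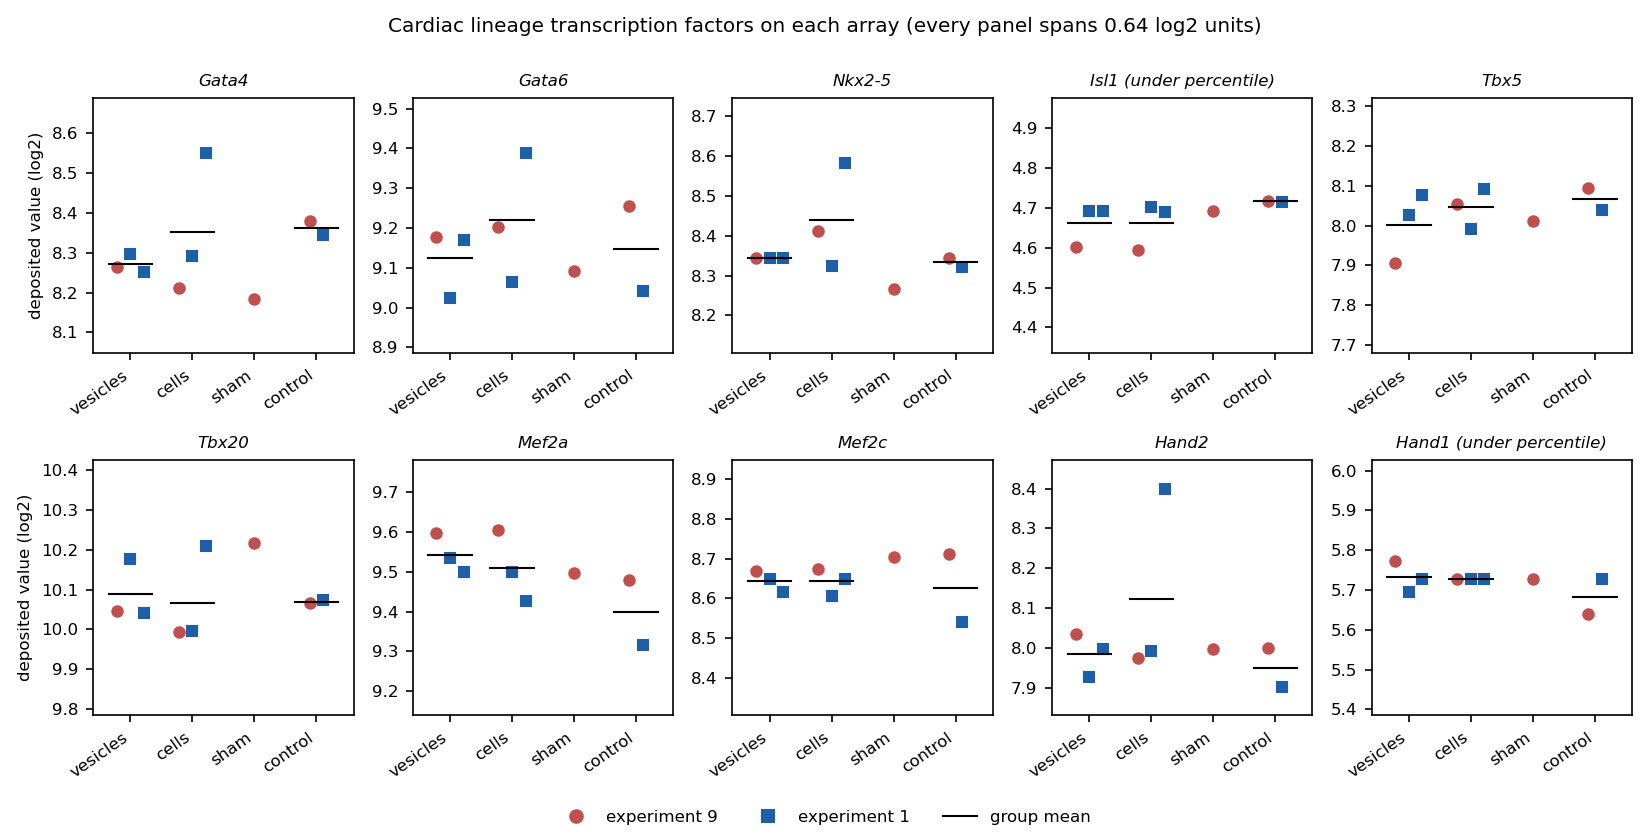
Deposited log2 values of the 10 factors (1 panel each) on the 9 arrays, by treatment; circles are arrays of experiment 9, squares arrays of experiment 1, and bars group means. Cell array 3, the top square of the cell group, stands above all other arrays for Gata4 (8.55), Gata6 (9.39), Nkx2-5 (8.58) and Hand2 (8.40), and each experiment's control array is its lowest treated or control array for Mef2a.

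Gata4, a zinc finger activator of contractile genes that also serves growth and survival of adult heart muscle, read 8.27, 8.30 and 8.25 on vesicle arrays 1 to 3 and 8.21, 8.29 and 8.55 on cell arrays 1 to 3. It read 8.18 on the sham array and 8.38 and 8.34 on control arrays 1 and 2. All 3 vesicle arrays lay below both control arrays, while the cell arrays ran from below both controls to above them. How many of all genes separate in this way was not counted, so the separation is not read as a result for Gata4. Gata6, its close relative, which is also used by smooth muscle, read 9.18, 9.02 and 9.17 on the vesicle arrays, 9.20, 9.07 and 9.39 on the cell arrays, 9.09 on the sham array and 9.26 and 9.04 on the control arrays. The SD of the 2 control arrays alone was 0.15, and the groups overlapped throughout.

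Nkx2-5, the homeodomain factor that marks the heart muscle lineage, read 8.34 on each of the 3 vesicle arrays, 8.41, 8.33 and 8.58 on the cell arrays, 8.27 on the sham array and 8.34 and 8.32 on the control arrays. Apart from cell arrays 1 and 3 and the sham array its values were nearly flat, and 3 arrays shared 1 identical deposited value. Identical values on 3 or more arrays occur for 61.1% of all genes in the deposited table, and they narrow the apparent spread. Isl1 read 4.60, 4.69 and 4.69 on the vesicle arrays, 4.59, 4.70 and 4.69 on the cell arrays, 4.69 on the sham array and 4.72 and 4.72 on the control arrays, below the control percentile everywhere, with a margin of -2.46 on the nearest array. A probe set this dim gives no measure of change, so no difference is given for it.

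Tbx5, a T-box factor of the left ventricle and the conduction system, read 7.90, 8.03 and 8.08 on the vesicle arrays, 8.06, 7.99 and 8.09 on the cell arrays, 8.01 on the sham array and 8.09 and 8.04 on the control arrays. Vesicle array 1 was the lowest of all. Tbx20, a T-box factor needed to keep adult heart muscle working in the mouse, read 10.05, 10.18 and 10.04 on the vesicle arrays, 9.99, 10.00 and 10.21 on the cell arrays, 10.22 on the sham array and 10.07 and 10.07 on the control arrays. Its highest value was thus that of the uninjected sham heart, and the treated arrays lay on both sides of the controls.

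Mef2a, the MADS-box factor that drives much of the adult muscle programme, read 9.60, 9.53 and 9.50 on vesicle arrays 1 to 3 and 9.60, 9.50 and 9.43 on cell arrays 1 to 3. It read 9.50 on the sham array and 9.48 and 9.32 on control arrays 1 and 2. In each experiment the control array was lower than every treated array, although cell array 3 of experiment 1 lay below control array 1 of experiment 9. Mef2c, its relative with a leading role in the embryonic heart and in endothelial cells, read 8.67, 8.65 and 8.62 on the vesicle arrays, 8.67, 8.61 and 8.65 on the cell arrays, 8.70 on the sham array and 8.71 and 8.54 on the control arrays. Both MEF2 genes had their lowest value on control array 2.

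Hand2, a helix-loop-helix factor of the right ventricle, the epicardium and sympathetic neurons, read 8.03, 7.93 and 7.996 on the vesicle arrays, 7.97, 7.99 and 8.40 on the cell arrays, 7.996 on the sham array and 7.998 and 7.90 on the control arrays. With the exception of cell array 3, all of its values lay between 7.90 and 8.03. Hand1, its left ventricular partner in the embryo, read 5.77, 5.70 and 5.73 on the vesicle arrays, 5.73 on each of the 3 cell arrays, 5.73 on the sham array and 5.64 and 5.73 on the control arrays. Hand1 lay below the control percentile on every array, with a margin of -1.43 on the nearest, and no difference is given for it either.

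Over the 9 arrays the 8 detected factors varied little, with standard deviations from 0.053 for Mef2c to 0.15 for Hand2. The median of 0.089 compares with 0.068 for all detected genes. The widest span, that of Hand2, was 0.50, or 1.41-fold.

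Vesicle hearts were compared with medium hearts to ask whether the vesicles altered the lineage factors of the failing heart. None of the 10 passed limma's moderated test (0 of 10 with an adjusted p under 0.05, against 0% of all 30142 genes). Mef2a had the widest difference, 0.17 ± 0.033 (SE; 3 vesicle and 2 control arrays), or 1.12-fold with a 95% interval from 1.06 to 1.19, at an unadjusted p of 0.00367 and a limma adjusted p of 0.676. It was higher on 3 of 3 vesicle arrays than on the control array of the same experiment, by 0.12 in experiment 9 and 0.20 in experiment 1. Without vesicle array 3 the difference was 0.17. Mef2a was the 1 factor of 10 with an unadjusted p under 0.05, a level reached by 6.44% of all genes, so that 1 of 10 is near the background. Gata4 differed by -0.10 ± 0.097, with -0.11 in experiment 9 and -0.070 in experiment 1, and Tbx5 differed by -0.069 ± 0.059. The Tbx5 difference rested on vesicle array 1: it was -0.19 in experiment 9 and 0.013 in experiment 1, and 0.0011 without that array. The Gata4 difference was -0.036 without control array 1 and -0.18 without control array 2. The other detected factors stood between -0.011 for Gata6 and 0.031 for Mef2c. Without vesicle array 3 Tbx20 stood at 0.042 in place of 0.0075. The median over the 8 detected factors was 0.0084, beside 0.0097 over all genes detected on every array. The widest interval, that of Hand2, ran from -0.34 to 0.40.

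Cell hearts were compared with medium hearts in the same way, and the 2 control arrays are shared with the vesicle comparison. Again 0 of 10 factors passed limma's test (0% of all genes), and 1 of 10, Mef2a, had an unadjusted p under 0.05, as did 6.73% of all genes. Mef2a stood at 0.13 ± 0.033 (3 cell and 2 control arrays), or 1.10-fold with an interval from 1.03 to 1.16, at a limma adjusted p of 0.682. It was higher on 3 of 3 cell arrays, with 0.12 in experiment 9 and 0.15 in experiment 1. Hand2 stood at 0.17 ± 0.14, Nkx2-5 at 0.11 ± 0.077 and Gata6 at 0.084 ± 0.11, each with an interval that spans 0 and each resting largely on cell array 3: without that array the values were 0.033 for Hand2, 0.035 for Nkx2-5 and -0.014 for Gata6. With the VTS number as block in place of the experiment they were 0.099 for Hand2, 0.071 for Nkx2-5 and 0.017 for Gata6. Mef2c stood at 0.029 ± 0.038, Tbx20 at -0.014 ± 0.077, Gata4 at -0.023 ± 0.097 and Tbx5 at -0.026 ± 0.059. Without cell array 3 Gata4 stood at -0.11, Tbx20 at -0.075, Tbx5 at -0.044, Mef2c at 0.014 and Mef2a at 0.15. The median over the 8 detected factors was 0.057, beside 0.021 over all genes detected on every array.

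**Figure D2:**
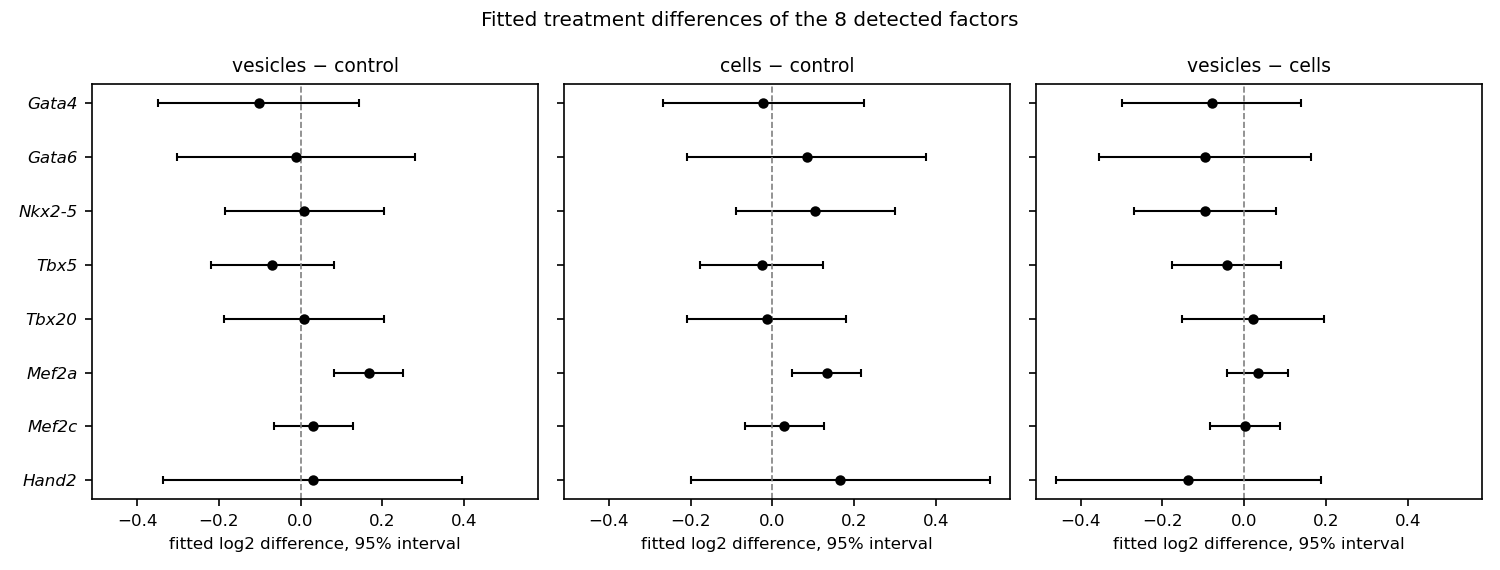
Fitted log2 differences (points) with 95% intervals (bars) for the 8 detected factors, in vesicles minus control, cells minus control and vesicles minus cells. The Mef2a intervals against control lie above 0 before adjustment (0.082 to 0.25 for vesicles and 0.048 to 0.22 for cells), and all other intervals span 0.

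Vesicle hearts were also set directly against cell hearts. Limma called 0 of 10 factors (0% of all genes), and 0 of 10 had an unadjusted p under 0.05, against 4.34% of all genes. Hand2 stood at -0.14 ± 0.13, Nkx2-5 at -0.096 ± 0.068, Gata6 at -0.095 ± 0.10 and Gata4 at -0.080 ± 0.086, and without cell array 3 these became 0.011, -0.019, 0.013 and 0.018. The remaining detected factors lay between -0.043 for Tbx5 and 0.034 for Mef2a. The interval for Mef2a ran from -0.041 to 0.11 and that for Mef2c from -0.084 to 0.087, so that for these genes differences beyond those bounds lie outside the 95% interval. For Hand2 the interval reached from -0.46 to 0.19.

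**Figure D3:**
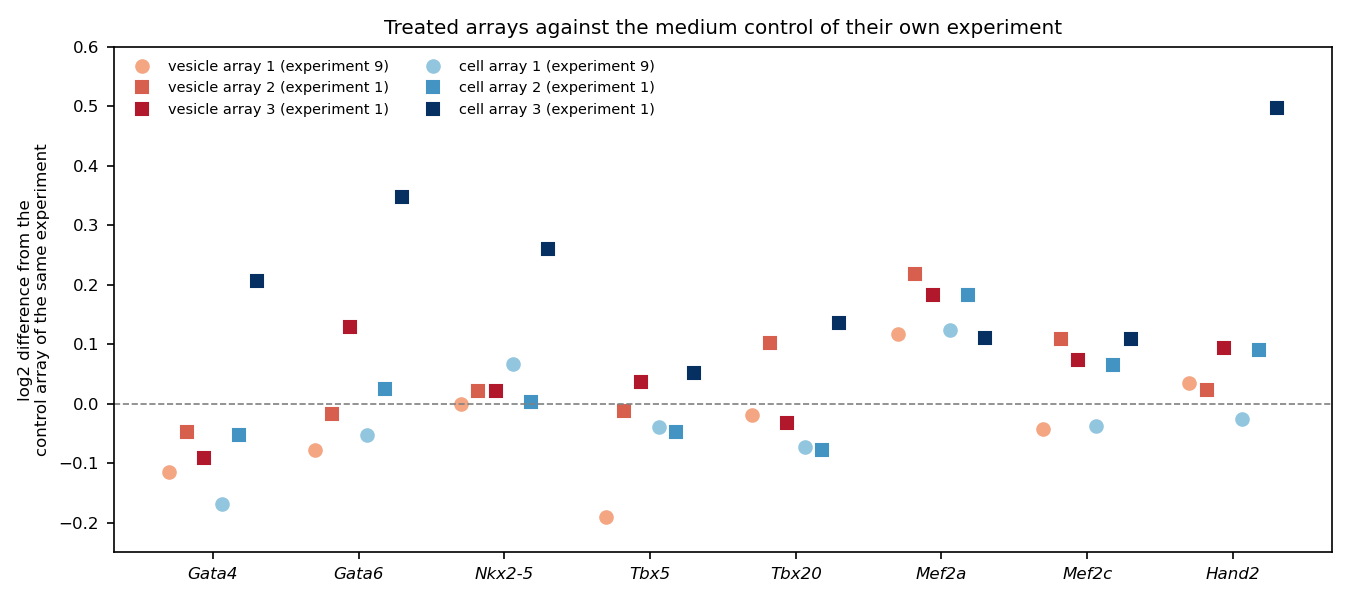
Difference of each treated array from the control array of its own experiment, in log2 units, for the 8 detected factors; circles are experiment 9 and squares experiment 1, with vesicle arrays in reds and cell arrays in blues. All 6 points lie above 0 for Mef2a, between 0.11 and 0.22, and the point of cell array 3 is the highest for Gata4, Gata6, Nkx2-5, Tbx5, Tbx20 and Hand2.

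Counted array by array, Mef2a and Nkx2-5 were the 2 factors of 10 that were higher on all 6 treated arrays than on the control array of the same experiment, a pattern shown by 3.03% of all genes. For Nkx2-5 the smallest of these differences was 0.00011, on vesicle array 1, so its direction there is not meaningful, and the range for Mef2a was 0.11 to 0.22. The 6 differences share 2 control arrays and are not 6 independent measurements. The 3.03% is a share of all genes, of which 20.1% were detected on all arrays. The share among detected genes was not counted, so 2 of 10 is not read as an excess. No factor had all treated arrays above both control arrays.

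Cell array 3 alone held the highest value for 4 of the 8 detected factors, Gata4, Gata6, Nkx2-5 and Hand2. It exceeded the next highest array by 0.17 for Gata4, 0.13 for Gata6, 0.17 for Nkx2-5 and 0.37 (1.29-fold) for Hand2. These 4 of 8 stand beside the 26.3% of detected genes that were highest on that array, the largest share of the 9 arrays. The share was 19.4% on cell array 1 and 17.2% on vesicle array 1, both of experiment 9. On cell array 2, of the same experiment as cell array 3, it was 2.90%. Tbx20 (10.21) and Tbx5 (8.09) came close to their highest values on cell array 3, while Mef2a (9.43 there) was lower only on control array 2. Scores of gene lists average each member's log2 deviation from its own 9-array mean. The other cardiac regulators (0.067) and the target genes (0.072) scored highest on cell array 3. Endothelial markers (0.060) and atrial markers (0.38) did so by little: cell array 2 scored 0.052 and 0.35, and vesicle array 1 scored 0.050 for endothelial markers. The regulator score averages 36 genes, of which 23 were detected on no array. Myl7 and Nppa are in both the target and the atrial list, so the scores of these lists are not independent. Smooth muscle markers scored 0.18 on cell array 3, beside 0.18 on vesicle array 3, and heart muscle markers -0.019 on cell array 3. The part of these cell types in the levels of the factors was not tested.

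Likeness between the factors that peaked on cell array 3 was lower without that array. Over the 9 arrays Pearson's r was 0.87 between Nkx2-5 and Hand2, 0.77 between Gata4 and Nkx2-5, 0.75 between Gata4 and Hand2 and 0.62 between Gata4 and Gata6. Over the 8 arrays without cell array 3 the same values were -0.031, 0.050, -0.32 and 0.022. Gata6 and Hand2 kept more of theirs, 0.83 with and 0.64 without that array, as did Gata6 and Nkx2-5, 0.80 with and 0.47 without it. These factors were grouped by their peak on cell array 3, so a fall in r without it was largely built in. Mef2a and Mef2c had r = 0.62 with it and 0.66 without it. The arrays of an experiment share that experiment, and these values describe 9 arrays only.

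The genes whose pattern over the 9 arrays was most like a factor were found among 6062 detected genes, and high values are common when so many genes are compared over so few arrays. For Nkx2-5 they were Ctdsp1 (r = 0.99) and Bcl2l13 (0.99), for Hand2 Kdm5c (0.98) and Atf4 (0.98), for Mef2a Ythdc1 (0.98) and Efnb2 (0.95) and for Mef2c Tbl1xr1 (0.95) and Prkar2a (0.95). Without cell array 3 the values for Hand2 were 0.71 with Kdm5c and 0.83 with Atf4, and those for Mef2a were 0.98 and 0.95. Gata4 was most like Antxr2 (0.95, or 0.82 without cell array 3) and Arpin (0.94, or 0.80 without it). Gata6 was most like Kmt2d (0.94, or 0.87 without it) and Nup98 (0.91, or 0.80 without it). Tbx5 was most like Mien1 (0.92) and Marveld1 (0.92), and Tbx20 like P3h2 (0.93) and Pam (0.92).

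The experiments could be compared because vesicles, cells and medium were each run in both. All arrays of experiment 9 carry VTS 3, and those of experiment 1 carry VTS 1 or VTS 2. A difference between experiments therefore cannot be told apart from one between VTS numbers. Experiment 9 minus experiment 1, with treatment in the model, gave 0 of 10 factors past limma's threshold (0% of all genes) and 2 of 10, Mef2a and the undetected Isl1, with an unadjusted p under 0.05, against 12.8% of all genes. Mef2a was higher in experiment 9 by 0.13 ± 0.027 (limma adjusted p = 0.274; 3 arrays in experiment 9 and 5 in experiment 1), and Mef2c by 0.076 ± 0.030 (limma adjusted p = 0.395). Without either control array the Mef2c gap was 0.041. Heart muscle markers stood higher in experiment 9 for 6 of 6 (median 0.073), and atrial (7), smooth muscle (7), macrophage (7) and epicardial (8) markers all stood lower, with 0 called in any of these lists. Only 3 of the atrial, 4 of the smooth muscle, 3 of the macrophage and 1 of the epicardial markers were detected on all arrays. The part of these cell types in the gaps of the factors was not tested. The other detected factors lay between -0.071 for Gata4 and 0.079 for Gata6. Without cell array 3 these were -0.018 for Gata4 and 0.14 for Gata6, and without either control array Gata6 stood at 0.029. Whether a treatment difference itself differed between experiments was tested with an interaction term, which left 2 residual degrees of freedom. For vesicles 0 of 10 factors passed (0% of all genes), and 2 of 10, the undetected Hand1 and Isl1, had an unadjusted p under 0.05, against 18.1% of all genes. For cells 0 of 10 passed (0%), and 1 of 10, Isl1, was under it, against 18.8%. For Mef2c the difference from control was -0.043 for vesicles and -0.038 for cells in experiment 9, and 0.091 for vesicles and 0.087 for cells in experiment 1. That difference of differences for Mef2c was -0.13 ± 0.046 for vesicles and -0.12 ± 0.046 for cells (limma adjusted p = 0.343 and 0.356).

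The single sham heart was set beside the arrays of experiment 9 with no test. It differed from control array 1 by -0.19 for Gata4, -0.16 for Gata6, -0.077 for Nkx2-5, -0.084 for Tbx5, 0.15 for Tbx20, 0.018 for Mef2a, -0.0091 for Mef2c and -0.0024 for Hand2. Sham was the lowest of the 9 arrays for Gata4 and Nkx2-5 and the highest for Tbx20, and lay within the range of the other 8 arrays for the remaining detected factors. Against vesicle array 1 the sham differences for Gata4, Nkx2-5 and Tbx20 were -0.080, -0.077 and 0.17, and against cell array 1 they were -0.026, -0.14 and 0.22. With 1 sham array there is no replicate check on these values.

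Other regulators of the cardiac programme were examined next. Of 36 measured regulators outside the 10 factors, such as further GATA, T-box, Iroquois and Hey factors, 11 were detected on all arrays and 23 on none. Against medium 0 of 36 passed limma's test after vesicles (13 higher, 23 lower, median -0.015) and 0 of 36 after cells (17 higher, 19 lower, median -0.0032), beside medians of -0.012 and -0.0064 over all genes. Most of the 36 lay under the control percentile, so these directions and medians are not read as a result. The lowest unadjusted p belonged to Hopx, a homeodomain-only cofactor that restrains serum response factor, at -0.18 ± 0.063 after vesicles. It read 7.87, 7.83 and 7.69 on the vesicle arrays and 8.12 and 7.87 on the control arrays (limma adjusted p = 0.676). After cells it was Tead1, a partner of the Hippo pathway's YAP protein, at 0.19 ± 0.061, with 8.94, 8.95 and 9.04 on the cell arrays and 8.89 and 8.71 on the control arrays (limma adjusted p = 0.682). The orphan nuclear receptor gene Nr2f2 and the forkhead gene Foxh1 followed after vesicles, and the helix-loop-helix gene Mesp2 and the Iroquois gene Irx3 after cells. None of these 4 was detected on all arrays, and no difference is given for them.

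Of 9 measured co-regulators, the class IIa histone deacetylases, acetyltransferases and remodelling subunits that work with the factors, 7 were detected on all arrays and 0 passed in either comparison (5 higher and 4 lower after vesicles, 6 and 3 after cells). Ep300, the acetyltransferase p300 that Gata4 and the MEF2 proteins recruit, stood at 0.14 ± 0.075 after vesicles. It read 8.46, 8.38 and 8.38 on the vesicle arrays and 8.43 and 8.14 on the control arrays, with control array 2 the lowest of all 9. Its relative Crebbp stood at 0.095 ± 0.052. Smarcd3, the cardiac remodelling subunit BAF60C, stood at -0.048 ± 0.027 after cells. Kdm6a, an X-linked histone demethylase, and the deacetylase gene Hdac9 were under the control percentile on all arrays, and no difference is given for them.

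The best known targets of the factors were also examined, 25 measured genes of contraction, conduction and calcium handling. Of these 22 were detected on all arrays and 0 passed limma's test in either comparison. After vesicles 8 were higher and 17 lower than after medium, with a median of -0.027, and after cells 15 were higher and 10 lower, with a median of 0.0088. Myl2, the ventricular myosin light chain that MEF2 proteins activate, stood at -0.11 ± 0.033 after vesicles, Tnni3, cardiac troponin I, at -0.074 ± 0.026 and Cacna1c, the L-type calcium channel, at 0.059 ± 0.016. Myl7, the atrial light chain, stood at -0.33 ± 0.12, with 7.21, 8.003 and 8.13 on the vesicle arrays. After cells Ryr2, the calcium release channel, stood at 0.093 ± 0.023, Myl7 at 0.38 ± 0.12 and Cacna1c at 0.040 ± 0.016. All of these had a limma adjusted p of 0.676 or above after vesicles and 0.682 or above after cells. For Myl7 the cell arrays read 7.61, 8.96 and 8.93 and the control arrays 7.31 and 8.55, a gap between experiments wider than that between treatments. Atrial marker scores lay between -0.34 and -0.19 on the arrays of experiment 9 and between 0.037 and 0.38 on those of experiment 1. How much atrial tissue each heart sample held, and its part in the levels of the factors, was not tested. Fibroblast markers stood higher after vesicles than after medium for 5 of 5 (median 0.20). After cells the 5 differences were small, from -0.071 to -0.023 (median -0.035), and single arrays lay on both sides of their controls. Postn and Dcn exceeded their own control on 1 of 3 cell arrays and Lum on 2 of 3. Col1a1 and Col3a1 read 9.43 and 9.50 on cell array 3, against 9.34 and 9.27 on control array 2. Medians over all genes detected on every array were 0.0097 for vesicles and 0.021 for cells. Of the 7 smooth muscle markers 4 were detected on all arrays and 3 on none. Smooth muscle markers stood higher for 7 of 7 after vesicles (median 0.10) and after cells (median 0.13), and endothelial markers for 7 of 8 in each (medians 0.040 and 0.068). The 4 lymphocyte markers, none detected, stood lower in each (medians -0.15 and -0.13). Limma called 0 of these markers in either comparison, and their part in the levels of Gata6, Mef2c or the other factors was not tested.

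**Figure D4:**
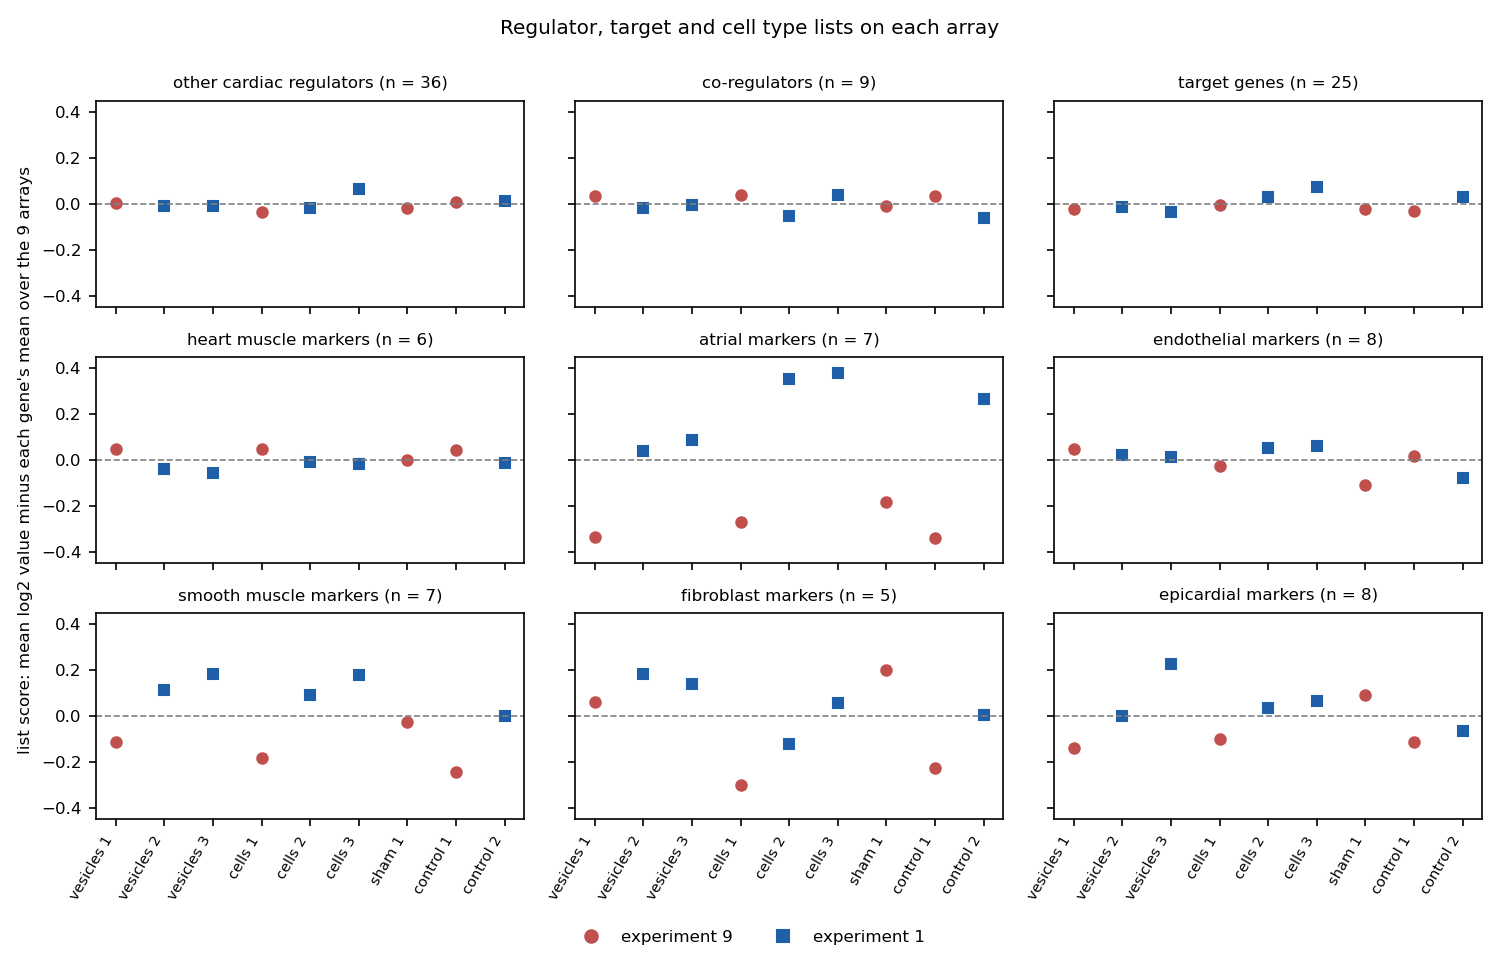
Scores of 9 gene lists on each array, as the mean log2 value minus each gene's mean over the 9 arrays, with circles for experiment 9 and squares for experiment 1. The regulator, co-regulator and target lists stay within 0.1 of 0 on all arrays, while the atrial list has the widest gap between the experiments (-0.34 to -0.19 in experiment 9 and 0.037 to 0.38 in experiment 1). Smooth muscle scores (-0.25 to -0.027 in experiment 9 and -0.00011 to 0.18 in experiment 1) and heart muscle scores (-0.0017 to 0.048 in experiment 9 and -0.055 to -0.0094 in experiment 1) do not overlap between them either.

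Cell types that use single factors for themselves were checked by their markers. Of 7 measured sympathetic ganglion markers, where Hand2 and Isl1 act, 0 were detected on all arrays and 6 on none, and the undetected markers included Th (5.48 to 5.50) and Dbh (5.03 to 5.20). Of 6 nodal markers 1 was detected, with Hcn4, Shox2 and Tbx3 on none of the arrays. Of 8 epicardial markers 1, Tcf21, was detected on all arrays and 7 on none. Tcf21 read 7.31 on cell array 3, against 7.29 to 7.49 on the other arrays. Wt1, which was not detected, was highest on cell array 3 (6.96, against 6.44 to 6.77 on the other arrays). The epicardial list score was 0.066 on cell array 3, 0.23 on vesicle array 3 and 0.090 on the sham array. Of 8 lung epithelium markers, a tissue that uses Gata6, 3 were detected on vesicle array 3 and 0 on any other array. Sftpc read 9.75 there, 6.35 on the sham array and 4.28 to 4.52 on the rest, and Sftpb read 8.39, 6.34 and 5.70 to 5.93. The part of lung tissue in the sham values was not tested. Gata6 on vesicle array 3, 9.17, lay inside the range of the other arrays. Without vesicle array 3 the vesicle difference of Gata6 was -0.048 in place of -0.011.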

How the data were processed

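Whole hearts were frozen and extracted with Trizol, and RNA was labelled as biotinylated sense-strand target for an Affymetrix mouse array, per the labels' protocols. The deposited table holds 1 log2 value per probe set and array as the authors normalized it. The submitters' processing notes name Partek, and neither the summarization nor the normalization is given in the sources used here. The logarithm base was taken as 2 from the range of the values (1.55 to 14.2). Of 80202 probe sets, 32750 are in the platform annotation table, of which 30604 have 1 gene symbol and 2146 several, and the 355 genes with several probe sets were represented by the one with the highest mean. Each of the 10 factors has 1. The 30142 genes entered limma 3.58.1 (R 4.3.3; lmFit and eBayes, two-sided) on the 8 arrays of vesicle, cell and control hearts, with a mean per treatment and the experiment number as a block, leaving 4 residual degrees of freedom. Benjamini-Hochberg adjustment covered all 30142 genes, and a gene was called at an adjusted p under 0.05. The fit was tested on simulated data with changes larger than the differences fitted for the factors. That test does not show whether differences as small as theirs would be found. The small number of arrays limits the precision, and the sham array, which has no replicate, was left out of the fit. Array numbers within a group are names in accession order and do not pair arrays. The factors and gene lists were chosen with earlier results of these data known. From each further list the genes named are those with the lowest unadjusted p, up to 3 per treatment against control, and the genes named as most like a factor are the 2 with the highest r. Alternatives were no experiment block, the VTS number in the titles as block, quantile normalization, centring each array on its median, a filter on dim genes, a trended robust prior, the mean over probe sets, the 99th percentile for detection, and leaving out each array in turn.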

Additional observations from a re-analysis of the deposited data

How the results depend on the processing

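Limma called 0 of the factors in the treatment and experiment comparisons under every alternative run, with 9 of the 10 left to test under the filter on dim genes. The interaction was run under no alternative. Leaving out control array 1 gave 823 genes called over the whole table for vesicles and 901 for cells, with 0 of the 10 among them, and left 1 control array, whose spread is taken to be that of the vesicle and cell groups. Mef2a kept its sign throughout, at 0.14 to 0.19 for vesicles and 0.10 to 0.16 for cells with 1 array left out, and at 0.15 to 0.19 and 0.094 to 0.16 under the other settings, and its lowest limma adjusted p was 0.129 for vesicles and 0.173 for cells. At the 99th percentile 3 factors were detected on all arrays, Gata6, Tbx20 and Mef2a. Several differences close to 0 changed sign, and the cause was not tested. For vesicles minus control, the VTS block gave -0.025 for Nkx2-5, -0.0059 for Tbx20 and -0.037 for Hand2, quantile normalization -0.0040 for Nkx2-5 and -0.0085 for Tbx20, and centring 0.010 for Gata6. For cells minus control, centring gave 0.0071 for Gata4, 0.0032 for Tbx5 and 0.015 for Tbx20, and quantile normalization -0.0078 for Mef2c. Centring gave -0.0071 for Mef2c in vesicles minus cells, and 0.023 for Nkx2-5, 0.00028 for Tbx5 and 0.0044 for Hand2 in experiment 9 minus experiment 1. With 1 array left out, vesicles minus control ran from -0.11 to 0.073 for Gata6, -0.014 to 0.029 for Nkx2-5, -0.14 to 0.0011 for Tbx5, -0.035 to 0.043 for Tbx20, -0.040 to 0.089 for Mef2c and -0.063 to 0.11 for Hand2. Cells minus control ran from -0.11 to 0.064 for Gata4, -0.017 to 0.17 for Gata6, -0.093 to 0.029 for Tbx5, -0.075 to 0.032 for Tbx20 and -0.041 to 0.088 for Mef2c. Vesicles minus cells ran from -0.15 to 0.018 for Gata4, -0.17 to 0.013 for Gata6, -0.079 to 0.017 for Tbx5, -0.029 to 0.089 for Tbx20, -0.016 to 0.022 for Mef2c and -0.24 to 0.011 for Hand2. Experiment 9 minus experiment 1 ran from -0.11 to 0.0093 for Gata4, -0.045 to 0.033 for Nkx2-5, -0.066 to 0.033 for Tbx5 and -0.086 to 0.083 for Hand2. Without a change of sign, Gata6 and Mef2c there ran from 0.029 to 0.14 and 0.041 to 0.099, and Gata4 in vesicles minus control from -0.18 to -0.036. Hand1 and Isl1, under the negative control percentile on all 9 arrays, gave no usable difference.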
